A study of Mus musculus with 8 samples.

Results

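The antiviral interferon-stimulated genes are the genes that a cell switches on to block the entry, copying or spread of a virus. The 36 genes described here were taken by name from the table of read counts per gene, 35 under their present symbol and 1, Ifit3b, under an older symbol, out of 23478 gene rows. They were followed in 8 mouse RNA sequencing libraries in 4 groups of 2 biological replicates, as the labels call them. The groups were disseminated cancer cells (DCC) treated with interferon-gamma (IFN-gamma), DCC controls without it, TUBO cells, and cells of an early lesion. The labels give the DCC as taken from bone marrow of mice with spontaneous metastasis of breast cancer. TUBO is a mouse breast cancer cell line, and the early lesion libraries are cancer cells of an early mammary tumour whose title names neuT, the activated rat Erbb2 oncogene. The genotype field reads WT for all 4 groups. No source used here gives the strain, the age, the dose of IFN-gamma or how long it was applied. Nothing in the labels says whether the replicates came from separate mice or cultures, so the p-values measure the spread between these libraries.

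Interferons reach the cell nucleus by distinct routes. Type I interferons such as interferon-beta activate a complex that holds STAT2 and IRF9 and binds the interferon-stimulated response element (ISRE), the hallmark of antiviral gene promoters. IFN-gamma, the product of T helper and natural killer cells, acts mainly through the gamma-activated sequence (GAS), and through IRF1, which also binds ISRE-like letters. In mammary tumours these genes are often read as a measure of interferon tone, the level of signalling that cells show without added interferon.

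Many members lie side by side in the genome, on GRCm38 with GENCODE M21 annotation. Ifit2, Ifit3, Ifit3b and Ifit1 span 34550694 to 34650009 on chromosome 19, and Oas2, Oas3, Oas1b, Oas1g and Oas1a span 120730333 to 120907521 on chromosome 5. Oasl2 and Oasl1 lie at 114896936 to 114937915 on chromosome 5, Mx1 and Mx2 at 97447035 to 97560900 on chromosome 16, and Parp14, Dtx3l and Parp9 at 35832874 to 35972605 on chromosome 16. Ifi44 and Ifi44l are neighbours on chromosome 3 (151730922 to 151762892), as are Rsad2 and Cmpk2 on chromosome 12 (26442746 to 26479837), and Apol9a and Apol9b both lie on chromosome 15. The others are single genes: Ifih1 and Samhd1 on chromosome 2, Isg15 and Ddx58 on 4, Usp18 and Parp12 on 6, Trim21 on 7, Bst2 on 8, Trim25, Dhx58, Xaf1 and Ifi35 on 11, Rtp4 on 16 and Eif2ak2 on 17. Mx2 and Oas1b are annotated as polymorphic pseudogenes, genes that are intact in some strains and disrupted in others.

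The promoters of many members hold the letters that antiviral genes are known for. RefSeq promoter windows (GRCm38.p6, from 250 bases before to 50 bases after a start site) were at hand for 27 of the 36 members. The ISRE core, GAAA followed by any 2 bases and GAAA again, searched on both strands, stood in the windows of 15 of these 27 members (55.6%), against 3.99% of 27025 genes. The GAS core TTCNNNGAA, also searched on both strands, stood in 6 of 27 (22.2%), against 9.55% of genes. The 6 were Ifit2, Oas1a, Eif2ak2, Bst2, Samhd1 and Ifi35, of which Oas1a, Eif2ak2 and Bst2 also held the ISRE core, with matches of both overlapping in Bst2 only. The stretches below were chosen because they carry the ISRE cores of Isg15, Bst2 and Ifit1, the members with the highest levels per length with IFN-gamma, and of 2 near-identical pairs. They are written 5′ to 3′ on the strand of the gene, all upstream of the start site, with ISRE cores of either strand in capitals and overlapping matches run together. They lie at chr4:156200855-156200916 on the minus strand (Isg15), chr19:34640765-34640833 on the plus strand (Ifit1), chr19:34583353-34583436 on the plus strand (Ifit3), chr19:34607749-34607832 on the plus strand (Ifit3b), chr5:120907526-120907565 on the minus strand (Oas1a), chr5:120887614-120887651 on the minus strand (Oas1g) and chr8:71537567-71537622 on the minus strand (Bst2).
Isg15: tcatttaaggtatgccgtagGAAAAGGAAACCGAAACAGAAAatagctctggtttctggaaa
Ifit1: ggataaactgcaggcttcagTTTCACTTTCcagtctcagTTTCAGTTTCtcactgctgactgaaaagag
Ifit3: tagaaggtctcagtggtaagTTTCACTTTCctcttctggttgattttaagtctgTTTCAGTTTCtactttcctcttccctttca
Ifit3b: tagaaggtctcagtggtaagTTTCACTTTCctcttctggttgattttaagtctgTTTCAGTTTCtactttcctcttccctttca
Oas1a: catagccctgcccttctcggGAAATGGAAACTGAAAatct
Oas1g: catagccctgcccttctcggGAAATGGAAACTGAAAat
Bst2: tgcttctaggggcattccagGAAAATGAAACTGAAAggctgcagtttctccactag
Ifit3 and Ifit3b shared all 84 of the 84 bases shown, and Oas1a and Oas1g shared 38 of 38. Their transcripts are alike in part: 51.2% of the 50-base stretches of Ifit3 also occur in Ifit3b and 57.6% of those of Oas1a in Oas1g. For the Apol9 pair, 52.3% of the stretches of Apol9b occur in Apol9a and 16.5% of those of Apol9a in Apol9b, so the counts of all 3 pairs are uncertain. A match is a description of the letters and not of binding, and a window without one says nothing of the factor.

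The 8 libraries held 15432210 to 30168475 counts on genes, so 3 counts, the floor used here for a gene without counts, equalled 0.0954 to 0.183 CPM (counts scaled to a common library size). Floors and exact intervals cover counting error only. A library is named by its group and replicate number. The libraries DCC control 1 and early lesion 2 differed from the rest. Of the reads in their columns, 49.2% and 44.1% fell outside annotated genes, against 18.3% to 31% in the other libraries. Among 1450 olfactory and vomeronasal receptor genes, which sensory neurons use, 47.7% and 63.7% had a count in these libraries. The share was 11.9% in DCC control 2, which was also the library at 31%, and 0.966% to 2% in the rest. Values near the floor in DCC control 1 and early lesion 2 are given with that in view. Counts of calls are also given with both left out, which keeps DCC control 2 in. The cell labels were checked against marker genes. The 12 epithelial markers summed to 0.367 and 0.501 CPM in the DCC IFN-gamma libraries, 7.37 and 4.32 CPM in DCC controls, 6533 and 7036 CPM in TUBO and 3938 and 3754 CPM in the early lesion. Epcam, Cldn3, Cldn4, Cldn7, Esrp1, Grhl2 and Elf3 were at 0 in both IFN-gamma libraries. The 9 fibroblast and stromal markers instead summed to 713 and 1171 CPM with IFN-gamma and 7456 and 8593 CPM in DCC controls, against 8.43 to 18 CPM in TUBO and early lesion. The DCC libraries thus nearly lacked the epithelial transcripts of the other groups, and they are called DCC after their label.

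IFN-gamma raised nearly the whole set in DCC. All 36 members had higher CPM in both IFN-gamma libraries than in both DCC control libraries. The set summed to 15258 and 8118 CPM with IFN-gamma, against 394 and 389 CPM in DCC controls, that is 1.49% and 0.682% of all gene counts against 0.0419% and 0.0394%. By quasi-likelihood F-tests in edgeR, adjusted after Benjamini and Hochberg across the 17069 genes tested, 35 of 36 members passed an adjusted p of 0.05, all higher, and Oas1g did not. Over all genes tested, 12.6% were called higher and 8.83% lower. With upper quartile scaling these shares were 8.94% and 13%, and the same count of 35 members was called higher. The median log2 fold change of the members was 5.51, against -0.20 over all genes. In these bulk samples, fewer cells of a type and less RNA per cell cannot be told apart. With DCC control 1 and early lesion 2 both left out, 34 members were called.

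**Figure D1:**
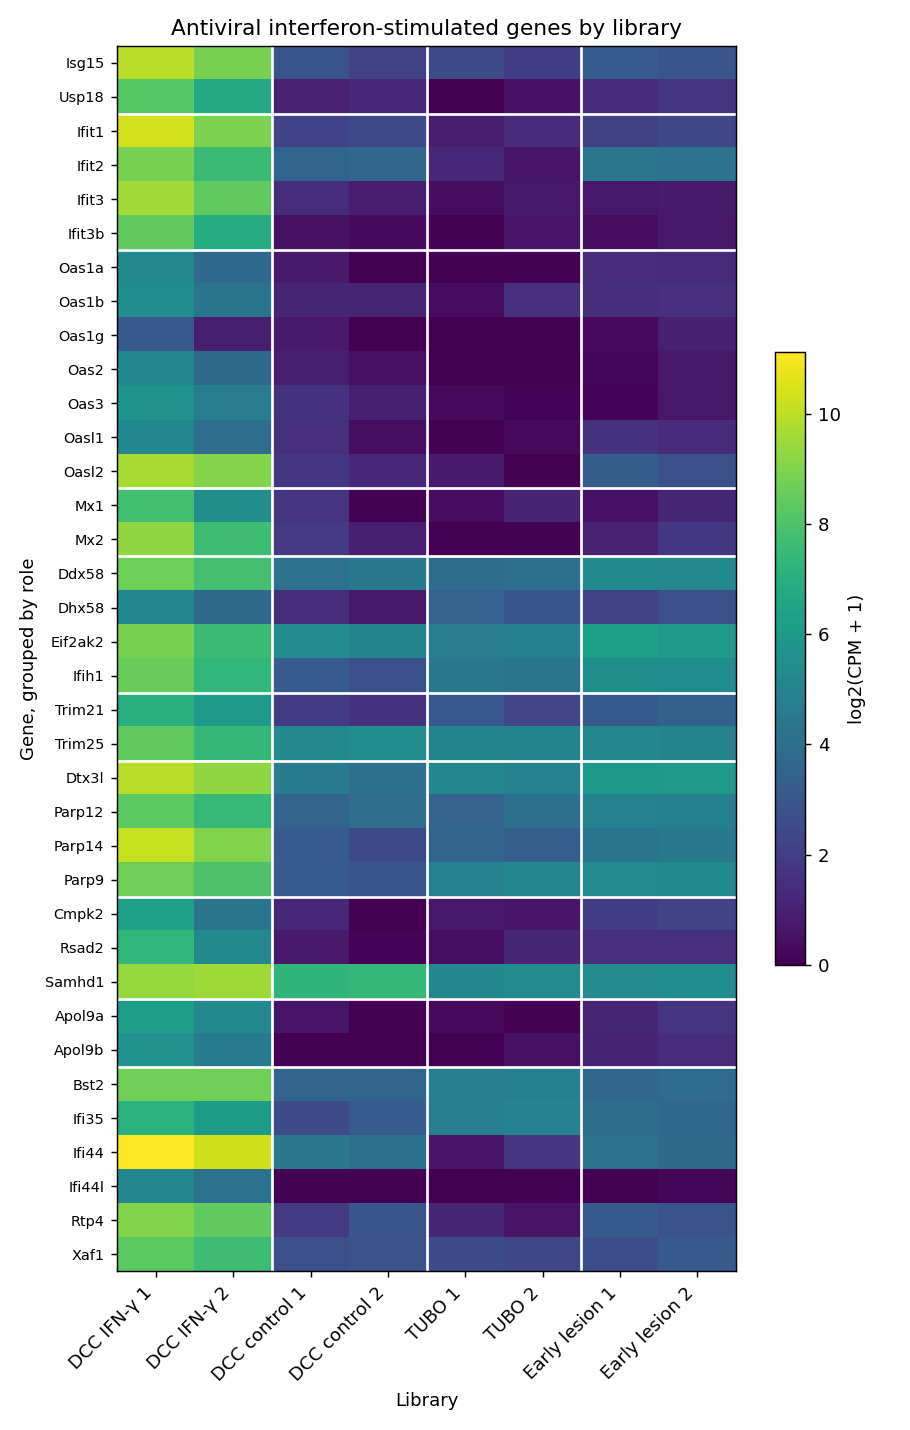
Heat map of log2(CPM + 1) for each of the 36 genes (rows, grouped by role) in each of the 8 libraries (columns, by group). The 2 DCC IFN-gamma columns are bright for nearly every gene, and Samhd1 is the brightest gene in the DCC control columns, at 152 and 169 CPM.

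The ISG15 system and the IFIT family were called in full, with 2 of 2 and 4 of 4 genes higher. Isg15, a ubiquitin-like protein that is joined to viral and host proteins, stood at 1001 and 456 CPM with IFN-gamma, against 6.45 and 3.60 CPM in DCC controls. The IFN-gamma libraries were the highest of all 8, and the log2 fold change was 7.20 ± 0.57 (SE, adjusted p = 0.000325). Usp18, the protease that removes ISG15 and dampens the type I receptor, had 302 and 104 CPM with IFN-gamma and 1.04 and 1.35 CPM in DCC controls. Its log2 fold change was 7.38 ± 0.84 (adjusted p = 0.00172), with 0.0797 when DCC control 2 was left out. The IFIT proteins bind foreign RNA ends. Ifit1 had 1294 and 488 CPM with IFN-gamma, against 3.77 and 4.55 CPM in DCC controls, a log2 fold change of 7.73 ± 0.62 (adjusted p = 0.000405). Ifit2 had the smallest change of the family, 4.80 ± 0.50 (adjusted p = 0.00104), and also the highest untreated level, at 11.1 and 11.8 CPM in DCC controls. Ifit3 had 760 and 340 CPM with IFN-gamma and 1.77 and 0.871 CPM in DCC controls, a log2 fold change of 8.77 ± 0.61 (adjusted p = 0.000189). Ifit3b, which cannot be fully parted from Ifit3, changed by 9.46 ± 1.05, and its call was lost without DCC control 2 (adjusted p = 0.0847).

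The active enzymes of the OAS family make the signal that activates RNase L. The OAS genes of the set reached lower mean levels in CPM than Isg15 and Ifit1. Of 7 genes, 6 were called higher, with a median log2 fold change of 4.65 over the 7. Oasl2, an OAS-like protein, was far above the rest with 817 and 524 CPM with IFN-gamma, against 2.44 and 1.43 CPM in DCC controls (8.48 ± 0.76, adjusted p = 0.000626). Oas1a, Oas1b, Oas2, Oas3 and Oasl1 lay between 12.9 and 51.4 CPM in the IFN-gamma libraries and between 0 and 2.13 CPM in DCC controls, without overlap. Their log2 fold changes were between 4.56 and 6.25. Of these 5, Oas1a was called in every fit with 1 library left out. Oas1b and Oas2 lost the call without DCC control 1 (adjusted p = 0.0522 and 0.0565) and without replicate 2 (0.0691 and 0.0981). Oas3 lost it without DCC control 2 (0.0727), and Oasl1 without it (0.0561) and without IFN-gamma 1 (0.0607). Oas1g had 7.51 and 0.918 CPM with IFN-gamma and 0.670 and 0 CPM in DCC controls. It was the lowest member in the IFN-gamma libraries and the only one whose lower IFN-gamma value was under a value of another library, 0.981 CPM in early lesion 2. The MX proteins are GTPases that trap viral capsids. Mx2 had 620 and 201 CPM with IFN-gamma, against 2.62 and 0.911 CPM in DCC controls (7.94 ± 0.87, adjusted p = 0.00146). Mx1 had 215 and 43.8 CPM with IFN-gamma, and 2.19 and 0 CPM in DCC controls, where all counts came from DCC control 1, a library with reads on olfactory receptor genes. The call of Mx2 was lost without DCC control 2 (adjusted p = 0.0588). Mx1, with a log2 fold change of 7.08 ± 1.54 (adjusted p = 0.0266), lost its call in 5 of the 8 fits, with adjusted p of 0.236 without IFN-gamma 1, 0.173 without DCC control 2, 0.0964 and 0.075 without TUBO 1 and 2, and 0.0563 without early lesion 1.

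The 4 sensors of viral RNA were all called higher, with a median log2 fold change of 4.18. Ddx58, which encodes RIG-I, had 408 and 222 CPM with IFN-gamma, against 17 and 21.4 CPM in DCC controls, a log2 fold change of 4.03 ± 0.29 (adjusted p = 2.62e-05). Ifih1, which encodes the related sensor of long duplex RNA, had 386 and 161 CPM with IFN-gamma and 8.16 and 5.58 CPM in DCC controls (5.33 ± 0.47, adjusted p = 0.000384). Dhx58, their regulator LGP2, reached only 35.2 and 13.3 CPM with IFN-gamma, against 1.77 and 0.713 CPM in DCC controls (4.33 ± 0.63, adjusted p = 0.00141). Eif2ak2, the kinase PKR that halts translation, had 455 and 188 CPM with IFN-gamma and 40.5 and 31.6 CPM in DCC controls. Its log2 fold change was 3.16 ± 0.42 (adjusted p = 0.00255). Without DCC control 2 it was 2.99 and no longer called (adjusted p = 0.0526). The ubiquitin ligase Trim25, which acts on RIG-I, had 337 and 169 CPM with IFN-gamma, against 36.8 and 42.1 CPM in DCC controls (2.68 ± 0.30, adjusted p = 0.000447). Trim21, which binds antibody inside the cell, had 124 and 64.1 CPM with IFN-gamma and 2.92 and 2.06 CPM in DCC controls (5.26 ± 0.45, adjusted p = 0.000114).

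The 3 ADP-ribosyl transferase genes and Dtx3l were also all called higher, with a median log2 fold change of 5.47. Dtx3l, a ubiquitin ligase that pairs with PARP9, had 973 and 609 CPM with IFN-gamma, against 21.9 and 15.5 CPM in DCC controls (5.41 ± 0.29, adjusted p = 3.29e-06). Parp9 had 420 and 255 CPM with IFN-gamma and 8.10 and 6.54 CPM in DCC controls (5.54 ± 0.28, adjusted p = 1.56e-06). Parp14 had 1141 and 522 CPM with IFN-gamma, against 8.16 and 4.71 CPM in DCC controls (7.03 ± 0.50, adjusted p = 0.000148). Each was higher in both IFN-gamma libraries than in any of the 6 others, and so was Parp12 (4.28 ± 0.36, adjusted p = 0.00014). Parp9 and Dtx3l overlap on opposite strands, with 7.71% of the stretches of Parp9 shared, and the strand setting of the counting was not given, so reads of the overlap cannot be assigned.

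Among the enzymes that act on nucleotides, Rsad2 (viperin, which makes a chain-terminating nucleotide) had 164 and 38.5 CPM with IFN-gamma, against 0.731 and 0.0792 CPM in DCC controls. Its neighbour Cmpk2, a nucleotide kinase, had 80.1 and 18.2 CPM with IFN-gamma and 1.40 and 0 CPM in DCC controls. Both differed more than 4-fold between the IFN-gamma replicates. The call of Rsad2 (8.16 ± 1.17, adjusted p = 0.00446) lost its call without DCC control 2 (adjusted p = 0.112). That of Cmpk2 (6.31 ± 1.33, adjusted p = 0.0197) was lost in 6 fits, at 0.117 and 0.0553 without IFN-gamma 1 and 2, 0.0798 without DCC control 2, 0.083 and 0.0659 without TUBO 1 and 2, and 0.0606 without early lesion 1. Samhd1, the enzyme that depletes the nucleotides a virus copies with, behaved otherwise. It had 649 and 744 CPM with IFN-gamma and 152 and 169 CPM in DCC controls, the smallest fold change of the 36 (2.12 ± 0.16, adjusted p = 1.41e-05) from the highest untreated level.

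The remaining effectors included the most abundant member and those with no untreated count. Ifi44 had 2220 and 1286 CPM with IFN-gamma, against 20 and 15.7 CPM in DCC controls (6.62 ± 0.58, adjusted p = 0.000506). Bst2, the tether (tetherin) that holds budding virus at the membrane, had 417 and 421 CPM with IFN-gamma and 10.8 and 10.9 CPM in DCC controls. Its replicates were nearly equal in both groups, and its test had the smallest adjusted p of the set (5.28 ± 0.17, adjusted p = 1.74e-07). Ifi44l and Apol9b had no count in either DCC control library. Ifi44l had 34.9 and 17.2 CPM with IFN-gamma, at least 143-fold higher than the floor of 3 counts per library, and Apol9b had 48.6 and 23 CPM, at least 196-fold higher. Apol9a, Xaf1, Rtp4 and Ifi35 were also called, with log2 fold changes between 3.93 (Ifi35) and 7.92 (Apol9a). Rtp4 and Ifi35 each share stretches with a gene model that has no name of its own (11.6% and 10.4% of their stretches). Ifi44l lost its call under DESeq2 (adjusted p = 0.0546).

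**Figure D2:**
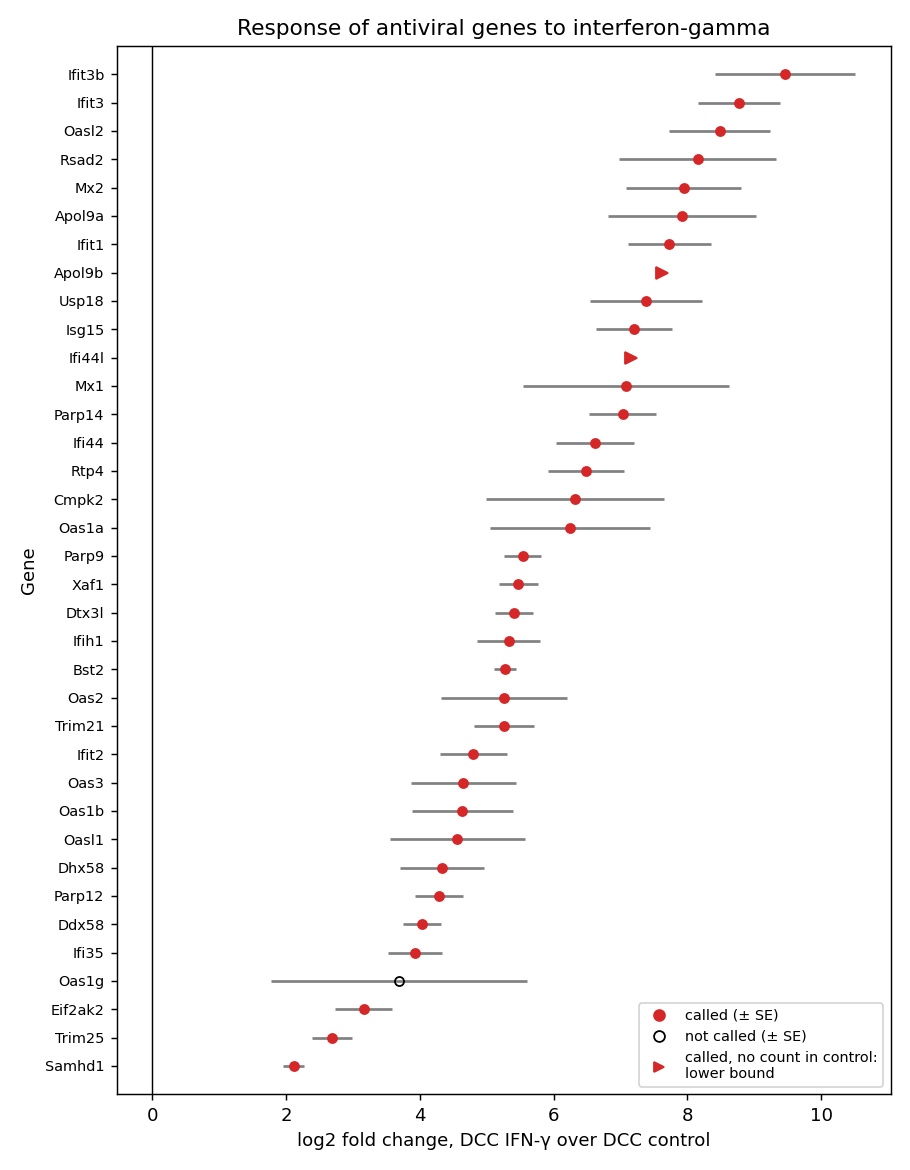
Log2 fold change of DCC IFN-gamma over DCC control for each gene, ordered by size, with bars of 1 standard error. Filled points passed the adjusted p of 0.05, the open point (Oas1g) did not, and triangles are lower bounds for Ifi44l and Apol9b, which had no count in DCC controls. Samhd1 has the smallest change, 2.12.

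Of the 35 calls, 24 held in each of the 8 fits with 1 library left out. The number called ranged from 24, without DCC control 2, to 35. Leaving out IFN-gamma 1 lowered the fold of 23 of the 35 by more than 1.5 times and the median log2 fold change to 5.14, and 32 calls held. Leaving out IFN-gamma 2 raised it by more than 1.5 times for 8, leaving out DCC control 1 raised it for 10, and leaving out DCC control 2 moved it for 8, of which 7 fell. Members with a higher untreated level changed less: across the 36 genes Spearman's rho between the DCC control level and the log2 fold change was -0.55, a description only, since the control libraries enter both values.

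Levels per length of exon place the members on a common scale. In the IFN-gamma libraries the mean was 964 CPM per kb for Isg15, 464 for Bst2, 335 for Ifit1, 315 for Ifit3 and 286 for Ifi44, and the lowest was 1.80 for Oas1g. In DCC controls the order by CPM per kb was different at the top: Samhd1 had 17.6, Bst2 12, Eif2ak2 7.05, Trim25 6.86 and Isg15 6.65. The genes with the highest tone without IFN-gamma were thus Samhd1, Bst2, Eif2ak2, Trim25 and Isg15, and the IFIT genes other than Ifit2 were under 2 CPM per kb.

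The 2 IFN-gamma libraries differed from each other in a way that ran through most of the set. Replicate 1 was at least 1.5 times replicate 2 for 34 of 36 members, against 27.6% of all genes tested, and the exceptions were Bst2 (0.991) and Samhd1 (0.872). The median ratio was 2.19 over the members, with the highest 8.19 for Oas1g, 4.92 for Mx1, 4.41 for Cmpk2 and 4.25 for Rsad2. Over all 13863 genes tested that had counts in both libraries the median ratio was 0.999. Among the 147 other genes that were called with a log2 fold change of at least 4 it was 1.12. Other interferon-stimulated genes shared the excess: in the list of 39 such genes that are not members, 24 had a ratio of at least 1.5, with a median of 1.73. Regulators were spread along the same range. Ifnb1, the gene of interferon-beta, had 15.1 and 3.21 CPM in the IFN-gamma libraries, a ratio of 4.71. Irf7, the factor that amplifies type I interferon, had a ratio of 2.05, and Irf9 and Stat2, which act on the ISRE, had 1.62 and 1.61. Irf1 stood at 865 and 1018 CPM in the IFN-gamma libraries, a ratio of 0.850. Of the 36 members, 34 were higher in replicate 1, against 45.3% of all genes. Marker genes of cell types differed between the replicates as well. The osteoblast markers summed to 10054 CPM in replicate 1 and 25116 CPM in replicate 2. The macrophage and monocyte markers summed to 1571 and 1164 CPM. The cause of the difference between the 2 libraries was not tested.

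**Figure D3:**
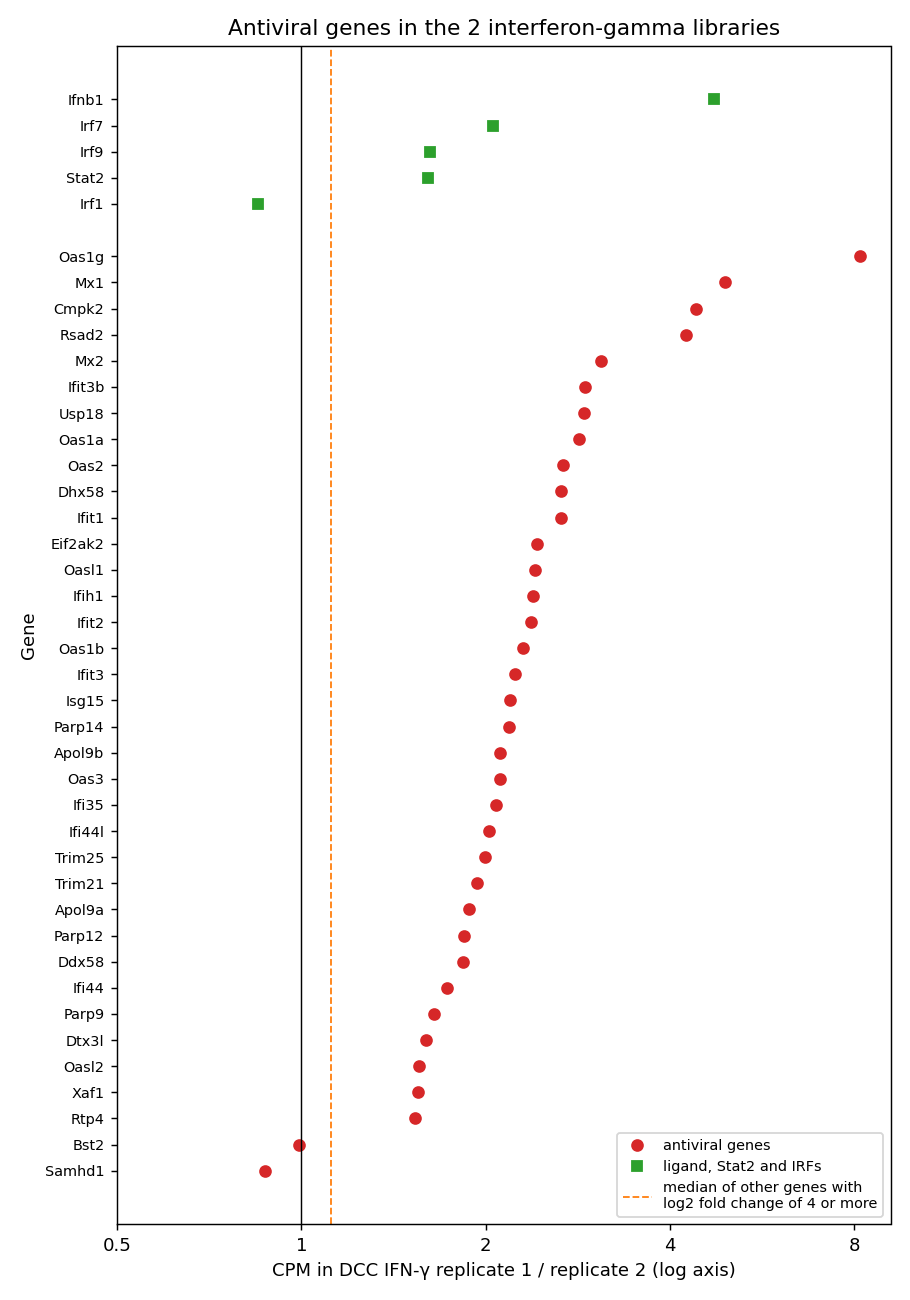
Ratio of CPM in DCC IFN-gamma replicate 1 to replicate 2 on a log axis, for the 36 antiviral genes (circles, ordered) and 5 regulators (squares). Each point is 1 gene, the solid line marks equal levels and the dashed line the median of 1.12 for the 147 other genes with a log2 fold change of at least 4. All antiviral genes but Bst2 and Samhd1 lie to the right of both lines.

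The wider pathway also moved in DCC with IFN-gamma, with lists of genes drawn up by name. Of 21 interferon ligands, 2 had enough counts to be tested and Ifnb1 was called higher: 15.1 and 3.21 CPM with IFN-gamma, against 0.183 and 0.198 CPM in DCC controls (5.55 ± 1.20, adjusted p = 0.0103). That call was lost without IFN-gamma 1 (adjusted p = 0.402) and without DCC control 1 (0.0581). Ifng itself had no count in the IFN-gamma libraries. Of 12 receptors, kinases and STATs, 6 were higher and 2 lower. Stat2 had 386 and 239 CPM with IFN-gamma, against 5.36 and 10.5 CPM in DCC controls (5.28 ± 0.36, adjusted p = 4.53e-05), with Irf9 at 3.42 ± 0.24 (1.14e-05). Ifnlr1, the lambda interferon receptor, was at 0 in both IFN-gamma libraries and at 0.791 and 0.515 CPM in DCC controls (adjusted p = 0.00242). Of 8 interferon regulatory factors, 5 were higher and none lower, led by Irf7 (7.27 ± 0.55, adjusted p = 0.000208), Irf1 (6.09 ± 0.25, 7.66e-07), Irf8 (5.44 ± 0.26, 1.09e-06) and Irf5 (3.85 ± 0.57, 0.00164).

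Of 12 adaptors and sensors that feed interferon production, 5 were higher with IFN-gamma and none lower. Tmem173, which encodes STING, had 57.1 and 67.7 CPM with IFN-gamma, against 7.18 and 9.15 CPM in DCC controls (2.93 ± 0.19, adjusted p = 7.20e-06). Tlr9, Tlr3 and Tlr7, endosomal receptors of nucleic acids, were called too, but lost the call without DCC control 1 (adjusted p = 0.157, 0.0571 and 0.0982) and without replicate 2 (0.319, 0.104 and 0.0715). Tlr9 and Tlr7 also lost it without IFN-gamma 1 (0.246 and 0.189), and Tlr9 without IFN-gamma 2 (0.216) and without TUBO 1 (0.0588) or 2 (0.0539). Of 9 negative regulators, 6 were higher and none lower, among them the phosphatase gene Ptpn6 (3.89 ± 0.28, adjusted p = 1.36e-05), the nuclease gene Trex1 (2.56 ± 0.29, 0.000189) and the RNA editor Adar (2.31 ± 0.28, 0.000542). Of 39 other interferon-stimulated genes, 33 were higher and none lower, with a median log2 fold change of 3.52. Zbp1, a sensor of left-handed nucleic acid, had 378 and 226 CPM with IFN-gamma, against 0.0609 and 0.119 CPM in DCC controls, and Slfn2 had 201 and 123 CPM with IFN-gamma, against 1.40 and 1.07 CPM in DCC controls (7.05 ± 0.34, adjusted p = 1.15e-06).

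Markers of macrophages and monocytes moved in the same direction. The 14 markers summed to 1571 and 1164 CPM with IFN-gamma and to 135 and 130 CPM in DCC controls, and 10 of 14 were called higher and none lower. No marker of the list was at 0 in either DCC group. The 10 were Aif1, Fcgr1, C1qa, C1qb, C1qc, Csf1r, Tyrobp, Cd68, Lyz2 and Cd14. Their part in the rise of the antiviral genes was not tested. Fibroblast and stromal markers were lower with IFN-gamma for 4 of 8 tested and higher for 1, and the 8 markers of T and natural killer cells summed to 0 and 0.0417 CPM, and the 4 of B cells to 0.257 and 0.167 CPM, in the IFN-gamma libraries. The 6 osteoblast markers summed to 10054 and 25116 CPM with IFN-gamma and 15797 and 21502 CPM in DCC controls, and 3 of them (Ibsp, Alpl and Runx2) were called lower and none higher. The part of these shifts in the rise of the antiviral genes was not tested.

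Without added interferon the early lesion had the highest summed level of the set, while the order of DCC controls and TUBO depended on Samhd1. The 36 genes summed to 394 and 389 CPM in DCC controls, 297 and 305 CPM in TUBO and 507 and 490 CPM in the early lesion. The groups did not overlap, but 38.7% and 43.4% of the DCC control sum was Samhd1. Without Samhd1 the sums were 242 and 220 CPM in DCC controls, 261 and 265 CPM in TUBO, and 467 and 448 CPM in the early lesion, so that DCC controls came below TUBO. The median member had 2.65 and 1.74 CPM in DCC controls, 0.759 and 1.37 CPM in TUBO and 4.40 and 5.60 CPM in the early lesion. No count at all was seen for 2 and 7 members in DCC control 1 and 2, for 8 and 6 in TUBO, and for 1 and 0 in the early lesion. Both early lesion libraries were above all 4 libraries of DCC control and TUBO for 17 of 36 members, against 15.8% of all genes. Both DCC controls were above the other 4 libraries for 4 of 36 (Ifit3, Oas3, Trim25 and Samhd1), against 29.2% of all genes, and both TUBO libraries for 3 of 36 (Dhx58, Bst2 and Ifi35), against 17%. Apart from Oas1g, every untreated value of a member was below both of its values with IFN-gamma, against 15.1% of all genes.

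In DCC controls against the early lesion, 9 of 36 members were lower and 1 was higher, where 18.7% of all genes were lower and 19.1% higher. The share called lower was only somewhat above that of all genes. The median log2 fold change was -0.84, with genes without counts at their fitted value, against 0.23 over all genes. With only these 2 groups in the fit, the filter kept 35 of the 36 members. The lower members were mostly RNA sensors and the PARP group. Ifih1 had 8.16 and 5.58 CPM in DCC controls, against 45.1 and 41.8 CPM in the early lesion, and Parp9 had 8.10 and 6.54 CPM in DCC controls, against 40 and 38.1 CPM in the early lesion. The groups did not overlap for either gene, with log2 fold changes of -2.68 ± 0.43 (adjusted p = 0.0023) and -2.42 ± 0.25 (3.14e-05). Dtx3l had 21.9 and 15.5 CPM in DCC controls and 59.1 and 64.1 CPM in the early lesion (-1.72 ± 0.25, adjusted p = 0.000439). These 3 calls, with that of Samhd1, held with any 1 library left out. Samhd1 had 152 and 169 CPM in DCC controls, against 40.1 and 41.5 CPM in the early lesion (1.98 ± 0.16, adjusted p = 4.41e-06). It was the member that stood clearly above the early lesion in DCC controls.

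The other 6 lower members rested on particular libraries. Trim21 had 2.92 and 2.06 CPM in DCC controls, against 7.85 and 9.77 CPM in the early lesion (-1.84 ± 0.41, adjusted p = 0.00762), and lost its call without DCC control 2 (adjusted p = 0.0851). Parp14 (-1.68 ± 0.42) lost its call without DCC control 2 (0.114) or early lesion 1 (0.0521) or 2 (0.0555). Ddx58 (-0.97 ± 0.26) lost its call without DCC control 1 (0.114) or early lesion 1 (0.0693). Dhx58 (-1.91 ± 0.60) lost its call without DCC control 2 (0.196), early lesion 2 (0.129) or TUBO 2 (0.0556). The call of Parp12 (-1.15 ± 0.33) went without DCC control 1 (0.142) or 2 (0.0519) or early lesion 1 (0.0889) or 2 (0.0543). Apol9b, at 0 in DCC controls and 1.14 and 1.70 CPM in the early lesion, was at least 7.77-fold lower. Its call went without IFN-gamma 2 (0.0723), DCC control 1 (0.0785) or 2 (0.162), or early lesion 1 (0.0634) or 2 (0.065). The number of members called was 6 without DCC control 2, 6 without early lesion 1, and 8 without DCC control 1 and early lesion 2 together (2 higher, 6 lower). The classical effectors Isg15, Ifit1, Ifit3, Mx1, Mx2, Oas1b, Oas2 and Ifi44 were not called, and Isg15 had 6.45 and 3.60 CPM in DCC controls and 8.39 and 6.60 CPM in the early lesion. Oasl2, Oas1a, Rsad2, Cmpk2 and Apol9a were not called either, but both DCC controls were below both early lesion libraries for each. Oasl2 had 2.44 and 1.43 CPM in DCC controls and 8.61 and 5.62 CPM in the early lesion. Called or not, 28 of the 36 fitted changes were lower and 8 higher.

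In DCC controls against TUBO, 7 of 36 members were higher and 7 lower, where 22.1% of all genes were higher and 19.9% lower. Both shares were near those of all genes, so these counts do not set the members apart from genes at large. The median log2 fold change was 0.38, against 0.37 over all genes. With only these 2 groups in the fit, the filter kept 30 of the 36 members. The higher members were Samhd1, Ifit2, Ifi44, Rtp4, Mx2, Oas2 and Oas3. The lower ones were the sensors Dhx58 and Ifih1, the pair Parp9 and Dtx3l, Trim21, Bst2 and Ifi35. Among the effectors, Ifit2 had 11.1 and 11.8 CPM in DCC controls, against 1.38 and 0.572 CPM in TUBO (3.53 ± 0.56, adjusted p = 0.00241). Ifi44 had 20 and 15.7 CPM in DCC controls and 0.586 and 2.29 CPM in TUBO (3.65 ± 0.57, adjusted p = 0.00245). Samhd1 had 152 and 169 CPM in DCC controls, against 35.4 and 40.1 CPM in TUBO (2.09 ± 0.16, adjusted p = 2.74e-06). These calls held with any 1 library left out, although the folds of Ifit2 and Ifi44 moved by more than 1.5 times without TUBO 1, and that of Ifi44 without TUBO 2 as well. On the other side, Dhx58 had 1.77 and 0.713 CPM in DCC controls, against 10.3 and 6.98 CPM in TUBO (-2.84 ± 0.61, adjusted p = 0.00445). Parp9 had 8.10 and 6.54 CPM in DCC controls and 28.3 and 33.7 CPM in TUBO (-2.09 ± 0.25, adjusted p = 7.89e-05). Bst2 had 10.8 and 10.9 CPM in DCC controls, against 25.8 and 26.5 CPM in TUBO (-1.27 ± 0.15, adjusted p = 6.48e-05). Ifi35, a regulator of the sensing pathway, had 4.75 and 8.16 CPM in DCC controls and 26.4 and 29.6 CPM in TUBO (-2.10 ± 0.38, adjusted p = 0.00271). In all 4 of these genes the TUBO libraries lay above both DCC controls, and the calls held with any 1 library left out, with the fold of Dhx58 moving by more than 1.5 times without DCC control 1.

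The rest of the calls against TUBO were less stable. Mx2 had 2.62 and 0.911 CPM in DCC controls, against 0 and 0.0381 CPM in TUBO, where a single read was counted, so that the ratio of 87.4 has an exact 95% interval of 15.2 to 3505 for counting error. Oas2 was at 0 in both TUBO libraries and at 0.913 and 0.396 CPM in DCC controls, at least 5.72-fold higher. Oas3 had 2.13 and 0.951 CPM in DCC controls, against 0.207 and 0.0763 CPM in TUBO (3.34 ± 0.99, adjusted p = 0.0286). Each of these 3 lost the call without either DCC control replicate or either TUBO replicate, with adjusted p of 0.114 to 0.226 for Mx2, 0.067 to 0.112 for Oas2 and 0.0628 to 0.183 for Oas3. Mx2 also lost it without IFN-gamma 2 (0.0511) or early lesion 1 (0.0674). Rtp4 (2.38 ± 0.60) lost its call without IFN-gamma 1 (0.0678) or 2 (0.0798), DCC control 2 (0.106) or TUBO 2 (0.0986). Ifih1 had 8.16 and 5.58 CPM in DCC controls and 20.6 and 18.5 CPM in TUBO (-1.52 ± 0.42), and lost its call without DCC control 1 (0.0579) or 2 (0.185) or TUBO 1 (0.141) or 2 (0.0874). Dtx3l (-0.78 ± 0.25) lost its call without DCC control 2 (0.173) or TUBO 1 (0.209) or 2 (0.0527), and also with upper quartile scaling (0.0814). Trim21 (-1.18 ± 0.42, adjusted p = 0.0498) lost its call without DCC control 1 (0.0941) or 2 (0.263), TUBO 1 (0.325), or early lesion 1 (0.0545) or 2 (0.0535), and with RLE (0.0644) or upper quartile scaling (0.0841). The number of members called fell to 9 without DCC control 1 and 8 without TUBO 2, and was 11 without DCC control 1 and early lesion 2 together.

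In TUBO against the early lesion, both of them rich in epithelial markers, 10 of 36 members were lower and 1 was higher, where 12.7% of all genes were lower and 11.4% higher. The median log2 fold change was -1.17, with genes without counts at their fitted value, against -0.27 over all genes. With only these 2 groups in the fit, the filter kept 32 of the 36 members. Ifit2 had 1.38 and 0.572 CPM in TUBO, against 19.7 and 17.8 CPM in the early lesion (-4.24 ± 0.55, adjusted p = 0.00226). Ifi44 had 0.586 and 2.29 CPM in TUBO and 17.1 and 13.5 CPM in the early lesion (-3.43 ± 0.57, adjusted p = 0.00634). Ddx58 had 14.2 and 15.2 CPM in TUBO, against 38.7 and 36.5 CPM in the early lesion (-1.35 ± 0.27, adjusted p = 0.00561). Bst2 went the other way, with 25.8 and 26.5 CPM in TUBO and 11.8 and 13.7 CPM in the early lesion (1.04 ± 0.15, adjusted p = 0.000625). These 4 calls held with any 1 library left out, although the folds of Ifit2 (without TUBO 1) and Ifi44 (without either TUBO replicate) moved by more than 1.5 times.

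The further lower members in TUBO were Oasl2, Oasl1, Oas1a, Rtp4, Eif2ak2, Parp12 and Dtx3l. Oasl2 had 0.724 and 0 CPM in TUBO, against 8.61 and 5.62 CPM in the early lesion (-4.23 ± 0.81, adjusted p = 0.0116). Its call was lost without IFN-gamma 1 (0.0542) or 2 (0.0565), DCC control 2 (0.0766) or early lesion 1 (0.0753). Oas1a had a single read in TUBO and 1.62 and 1.47 CPM in the early lesion, a ratio of 0.0116 with an exact 95% interval of 0.000291 to 0.0665. It lost its call without IFN-gamma 2 (0.0511), TUBO 1 (0.177) or 2 (0.234), or early lesion 1 (0.0987) or 2 (0.0852). Oasl1 (-4.00 ± 1.20, adjusted p = 0.0494) lost its call without IFN-gamma 2 (0.0685), TUBO 1 (0.18) or 2 (0.069), or early lesion 1 (0.149) or 2 (0.106). Rtp4 (-2.95 ± 0.58) lost its call without IFN-gamma 2 (0.0549), TUBO 2 (0.0795) or early lesion 1 (0.0615). Eif2ak2 and Parp12 (-1.44 ± 0.40 and -1.10 ± 0.32) lost their calls without any of the 6 untreated libraries, at adjusted p of 0.073 to 0.204 for Eif2ak2 and 0.0524 to 0.169 for Parp12. Dtx3l (-0.94 ± 0.24) lost its call without TUBO 2 (0.148) or early lesion 2 (0.0882). The number called fell to 6 without either early lesion replicate and 7 without either TUBO replicate, and was 7 without DCC control 1 and early lesion 2 together.

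**Figure D4:**
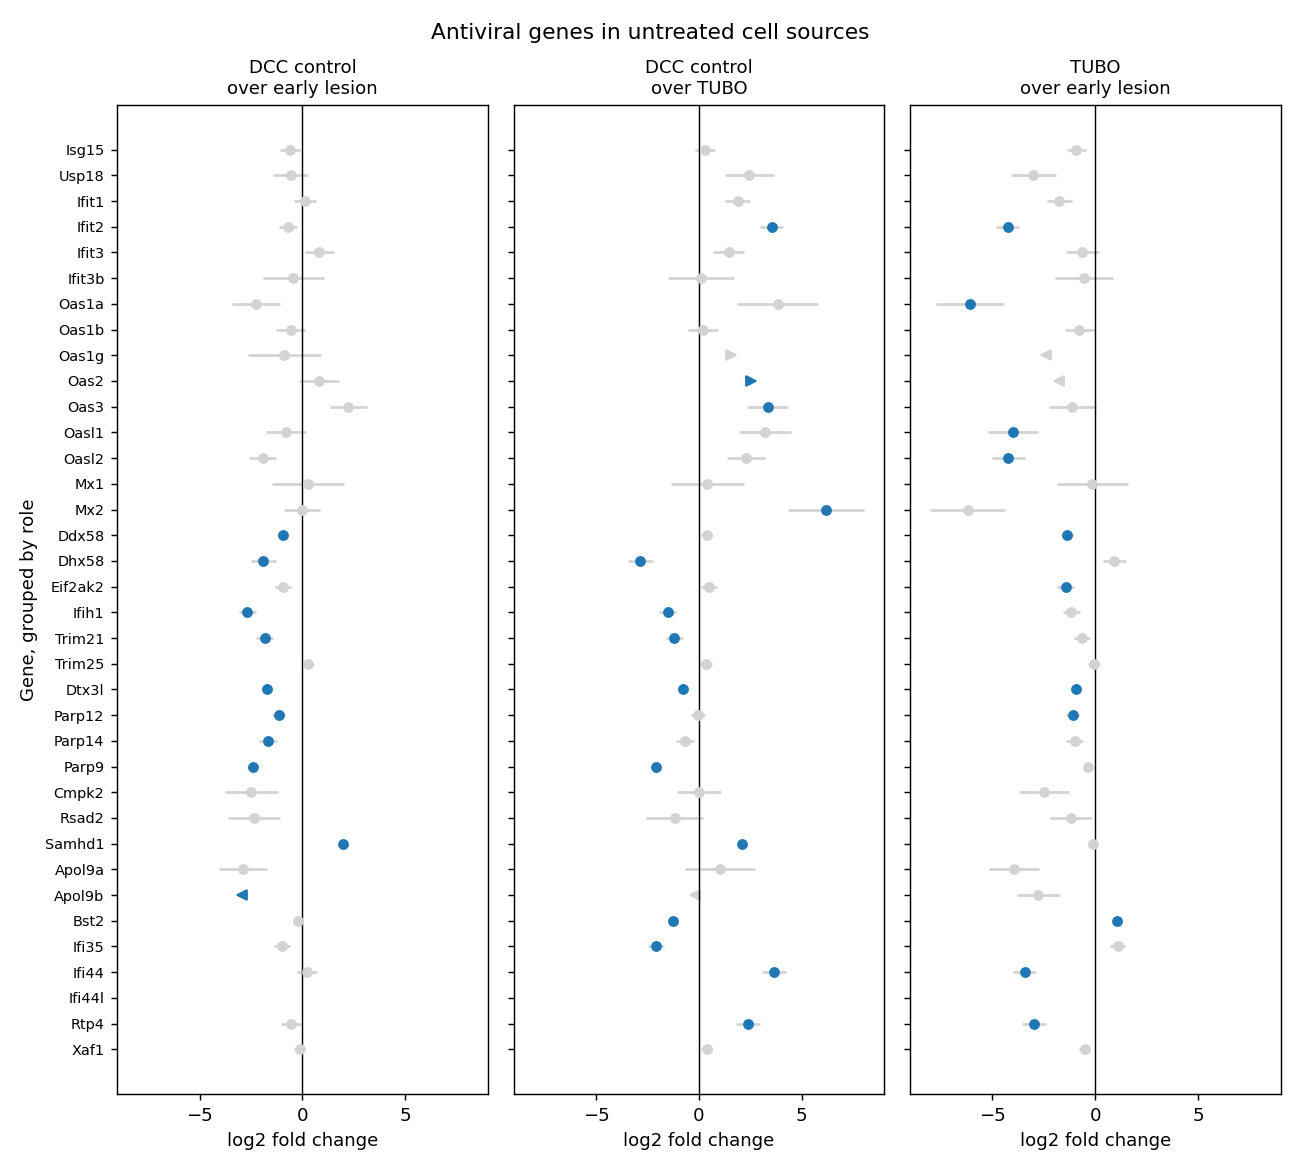
Log2 fold change of each gene in 3 comparisons of untreated cells: DCC control over early lesion, DCC control over TUBO, and TUBO over early lesion, with bars of 1 standard error. Blue marks passed the adjusted p of 0.05 and grey marks did not, triangles are bounds where 1 group had no count, and Ifi44l, at or under the floor in all 3 groups, has no mark. Samhd1 is to the right in both DCC control panels, at 1.98 and 2.09, and the sensors and PARP genes lie mostly to the left of 0 in the early lesion panels.

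The comparisons with DCC controls share those libraries, so a gene can only be read side by side. Samhd1 was 1.98 ± 0.16 over the early lesion and 2.09 ± 0.16 over TUBO, and in TUBO against the early lesion, at 35.4 and 40.1 CPM in TUBO and 40.1 and 41.5 CPM in the early lesion, it was not called. Parp9 was -2.42 ± 0.25 against the early lesion and -2.09 ± 0.25 against TUBO, and TUBO (28.3 and 33.7 CPM) and early lesion (40 and 38.1 CPM) were not called apart. Ifit2 was lowest in TUBO: 11.1 and 11.8 CPM in DCC controls, 1.38 and 0.572 CPM in TUBO and 19.7 and 17.8 CPM in the early lesion. For Bst2 the order was TUBO above the other sources, whose values of 10.8 and 10.9 CPM in DCC controls and 11.8 and 13.7 CPM in the early lesion were not called apart. Trim25 hardly differed among sources, at 36.8 and 42.1 CPM in DCC controls, 31.5 and 30.1 CPM in TUBO and 34.5 and 30 CPM in the early lesion, and passed in none of the 3 comparisons, and so did Xaf1, at 4.08 to 7.72 CPM in all 6 libraries.

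Regulators also differed among the untreated sources. Of 8 interferon regulatory factors, DCC controls had 1 higher and 4 lower than the early lesion, and 1 higher and 5 lower than TUBO. Irf8 had 1.70 and 2.73 CPM in DCC controls, 60.3 and 77.4 CPM in TUBO and 4.77 and 5.13 CPM in the early lesion, and was called in all 3 comparisons (DCC control against TUBO -4.92 ± 0.26, adjusted p = 2.04e-07). Irf7 had 2.37 and 1.31 CPM in DCC controls, against 7.34 and 6.51 CPM in the early lesion (-1.96 ± 0.50, adjusted p = 0.0203), a call lost without DCC control 2 (0.187) or early lesion 1 (0.083). Of 12 receptors, kinases and STATs, DCC controls had 4 higher and 3 lower than the early lesion and 3 higher and 3 lower than TUBO. Ifnar2, a chain of the type I receptor, had 176 and 178 CPM in DCC controls, 76.2 and 84.1 CPM in TUBO and 62.5 and 59 CPM in the early lesion, and Jak1 had 192 and 211 CPM in DCC controls, 93.7 and 82.4 CPM in TUBO and 101 and 95.7 CPM in the early lesion. Both were called higher in DCC controls than in each of the others.

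Of 39 other interferon-stimulated genes, 8 were higher and 9 lower in DCC controls than in the early lesion, 14 were higher and 7 lower than in TUBO, and in TUBO 4 were higher and 15 lower than in the early lesion. Ifitm3, which blocks viral fusion, had 23.1 CPM in both DCC controls, 204 and 222 CPM in TUBO and 461 and 413 CPM in the early lesion (DCC control against early lesion -4.24 ± 0.18, adjusted p = 7.55e-08). Ifi204, a nuclear DNA-binding protein, had 54.9 and 47.3 CPM in DCC controls, 0.483 and 0 CPM in TUBO and 1.30 and 1.29 CPM in the early lesion, and was called higher in DCC controls than in each (5.29 ± 0.57, adjusted p = 0.000504 against the early lesion, and 7.64 ± 0.70, adjusted p = 0.00021 against TUBO). Macrophage and monocyte markers, of which Ifi204 is not one, summed to 135 and 130 CPM in DCC controls, 77.5 and 111 CPM in TUBO and 99.7 and 108 CPM in the early lesion. In TUBO and the early lesion most of that sum was Cd14, at 73.9 to 107 CPM, and 12 of 14 markers were under 1 CPM in each TUBO library and in early lesion 1, and 10 in early lesion 2. In DCC controls 9 of the 14 were called higher and 1 lower than in the early lesion, and 11 higher and 1 lower than in TUBO. All 6 osteoblast markers were called higher in DCC controls than in TUBO and than in the early lesion. They summed to 3467 and 3925 CPM in TUBO and 4429 and 3564 CPM in the early lesion. In each of these libraries 3 of the 6 markers were under 1 CPM, so the sums rested on few genes. The part of such cells in the untreated tone was not tested.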

How the data were processed

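Per the labels' protocols, RNA came from RNeasy Mini columns and libraries from the Ovation Mouse kit of Nugen. The authors deposited 1 table of raw read counts per gene symbol for all 8 libraries. Per the submitters' processing notes, TopHat and HTSeq 0.6.1 were used with mm10, and the sources used here name no annotation, strand setting or filter. The 5 closing lines of the table, which name no gene, held 35.2% to 63.7% of its reads and were left out of library sizes and tests.

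From the deposited counts, CPM were computed with TMM-scaled library sizes (edgeR 4.0.16, R 4.3.3). Groups were compared with robust quasi-likelihood F-tests of edgeR, from a single fit of the 8 libraries in 4 groups (residual degrees of freedom 4), after filterByExpr at a minimum count of 10, which left 17069 genes and all 36 members. The filter saw all 4 groups, so a member could enter the untreated comparisons through its IFN-gamma counts alone. Over all genes the biological coefficient of variation came to 0.4158. A gene was called when its p, adjusted after Benjamini and Hochberg, was under 0.05. Each standard error is the size of the log2 fold change over the square root of F. With 2 libraries per group no permutation test can be informative. Where a group had no count, the bound sets the floor of 3 counts in each of its libraries. Where it had 1 to 3 counts, the exact interval at 95% is printed. The test was tested on simulated data.

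The members and all gene lists were chosen with earlier results of these data known, so none is independent support for a pattern. Fold changes are printed for called members, and for at most 4 called genes per pathway list and comparison, those with the largest change. Members whose reads another gene shares were found by matching 50-base stretches of GENCODE M21 transcripts. Alternatives were RLE and upper quartile scaling, no filter, a filter of 50 counts in 2 libraries, a replicate block, glmTreat, DESeq2 1.42.0, fits restricted to the pair at hand, each library left out in turn, and DCC control 1 and early lesion 2 left out together. Running them on the pathway genes as well was decided after seeing the data.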

Additional observations from a re-analysis of the deposited data

How the results depend on the processing

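No call of a member, and none of a pathway gene named, changed direction under any alternative that was run. Members named as not called in a comparison were not checked for this. In DCC IFN-gamma against DCC control the number of members called was 32 under glmTreat (against a log2 fold change of 1), 34 under DESeq2 and 24 to 35 with 1 library left out. For DCC control against early lesion it was 10, with 22 without a filter, 4 under glmTreat and 6 to 13 with 1 library left out. For DCC control against TUBO it was 14, with 24 without a filter, 7 under glmTreat and 8 to 17 with 1 library left out. For TUBO against early lesion it was 11, with 25 without a filter, 3 under glmTreat, 19 under DESeq2, 7 without DCC control 1 and early lesion 2 together, and 6 to 16 with 1 library left out. The cause of these shifts was not tested, apart from glmTreat, which asks for a larger change. Fits restricted to the pair at hand called 35, 12, 13 and 16 members in the 4 comparisons in this order. In DCC control against early lesion they lost the calls of Dhx58 (adjusted p = 0.0787) and Apol9b (0.0588). Those of Oas3 (0.0548) and Trim21 (0.108) in DCC control against TUBO, and of Oasl1 (0.0932) in TUBO against early lesion, were lost too. A replicate block gave 34, 10, 10 and 11 members in the 4 comparisons in this order. Under the block the calls of Mx1 with IFN-gamma (adjusted p = 0.0823), of Parp12 (0.0601) and Apol9b (0.0826) in DCC control against early lesion, and of Oasl1 (0.0677) and Parp12 (0.0921) in TUBO against early lesion were lost. In DCC control against TUBO those of Mx2 (0.0817), Oas2 (0.0503), Oas3 (0.0521) and Rtp4 (0.0552) were lost, which left 3 members higher and 7 lower. The replicate numbers were not shown to pair the libraries, since the deviations of same-numbered libraries correlated between -0.43 and 0.10 across genes. Upper quartile scaling moved the median log2 fold change of all genes in DCC IFN-gamma against DCC control to -0.40, against -0.20, and that of DCC control against TUBO to 0.48, against 0.37. Several members lay near the floor of 3 counts in untreated cells, and the part of depth in the untreated calls was not tested.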

Other observations

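Of 12 sensing adaptors, DCC controls had 2 higher and 4 lower than the early lesion and 4 higher and 3 lower than TUBO, and of 9 negative regulators, 3 higher and 2 lower than the early lesion and 2 higher and 1 lower than TUBO. The other genes of both lists were not called. Tlr3, the endosomal receptor of duplex RNA, had 7.67 and 6.81 CPM in DCC controls, 86.9 and 66.7 CPM in TUBO and 226 and 202 CPM in the early lesion (DCC control against early lesion -4.89 ± 0.52, adjusted p = 0.000446). Tmem173, the gene of STING, had 7.18 and 9.15 CPM in DCC controls, 91.8 and 84 CPM in TUBO and 64.7 and 57.4 CPM in the early lesion, and was called lower in DCC controls than in each (-2.90 ± 0.19, adjusted p = 1.25e-06 against the early lesion, and -3.42 ± 0.20, adjusted p = 4.11e-07 against TUBO). Mb21d1, the gene of the DNA sensor cGAS, was at 0 in both TUBO libraries, and had 5.30 and 3.49 CPM in DCC controls and 6.13 and 7.18 CPM in the early lesion. Socs1, which shuts off JAK signalling, ran the other way, with 24.7 and 22.5 CPM in DCC controls, 0.345 and 0 CPM in TUBO and 0.795 and 1.25 CPM in the early lesion (DCC control against early lesion 4.55 ± 0.52, adjusted p = 0.000254).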
